A study of Mus musculus with 79 samples.

Results

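The guidance ligands and receptors are the cues that steer growing axons and the proteins that read them. In these data they were 72 of the 25899 genes of the table, picked out by gene symbol: 9 EphA and 5 EphB receptors, 5 ephrin-A and 3 ephrin-B ligands, 7 class 3 (secreted) semaphorins, 13 membrane semaphorins of classes 4 to 7, 9 plexins, 2 neuropilins, 3 Slits, 4 Robos, 4 netrins, 2 netrin-Gs and 6 netrin receptors. The rule is a list of symbols and uses no measured value, but it was drawn up with earlier results of these data known. The study asked how mRNA on ribosomes differs among neurons that carry dopamine receptors, by receptor and by brain region.

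Ribosomes were pulled down by bacTRAP, in which a bacterial artificial chromosome (BAC) transgene tags the ribosomal protein L10a with eGFP in cells that use a chosen promoter. That promoter belonged to the dopamine D1a receptor gene in the lines called D1 here and to the D2 receptor gene in those called D2. The 79 libraries formed 5 groups. Dorsal striatum gave 15 D1 and 16 D2 libraries, ventral striatum (the nucleus accumbens) gave 15 D1 and 14 D2 libraries, and prefrontal cortex gave 19 D1 libraries. All mice were heterozygous for the transgene on a C57BL/6J background, the labels name no drug or other treatment, and D2 prefrontal cortex was not analysed here. Every library came from 3 pooled mice, with both sexes in each pool except 2 prefrontal libraries whose sex labels are incomplete, so the spread between libraries is a spread between pools. The labels used here give no ages and do not say if the pools of one region were also used for another. A BAC promoter tags every cell type that uses it, which can include interneurons and glia beside projection neurons. In such bulk samples, fewer cells of a type and less RNA per cell cannot be told apart.

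Libraries held from 7.35 M to 30.8 M reads in genes, with a median of 17.5 M, where M stands for mega. The values are CPM, a gene's reads per 1 M reads of the library, and 1 read was worth 0.0124 to 0.0466 CPM. The summed D2 identity markers ran from 1545 to 4525 CPM in striatal D2 libraries and from 40.1 to 248.6 CPM in striatal D1 libraries, and the D1 sum from 330.1 to 628.5 CPM in D1 and 20.2 to 83.6 CPM in D2 striatum. In prefrontal cortex, labelled D1, the D1 sum was lower, at 17.1 to 78.1 CPM, and 4 cortical excitatory markers summed to 447.7 to 771.7 CPM. Prefrontal replicates 6, 2, 1 and 19 carried the highest sums of 5 striatal projection neuron markers, from 226.3 to 380.1 CPM against 70.9 to 146.3 in the other 15 (1319 to 3902 in striatum). D2 ventral striatum replicate 2 had a cortical marker sum of 66.4 CPM against at most 17.6 in the other 13, and D2 dorsal striatum replicate 1 had 27.9 against at most 12.4 in the other 15. Library names begin with letter codes whose meaning is not stated. The code EM covered 11 of 15 D1 and 8 of 16 D2 dorsal, 11 of 15 D1 and 8 of 14 D2 ventral and 15 of 19 prefrontal libraries, and OdP covered the other 8 D2 dorsal libraries. Between EM and OdP libraries of D2 dorsal striatum, 3 of 43 guidance genes were called different beside 30.2% of all genes tested: Sema4b was higher in EM, and Sema3a and Robo1 were lower.

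Guidance cues act in pairs with receptors. Ephrins sit on the cell surface and bind Eph receptor tyrosine kinases on a neighbouring cell, mostly within the A or the B class, and both partners can signal. Semaphorins bind plexins; class 3 semaphorins mostly need a neuropilin as co-receptor, while Sema3e can bind Plxnd1 without one, and Sema7a binds Plxnc1. Slits repel through Robos, netrins attract through Dcc and repel through Unc5 receptors, and netrin-Gs, which are anchored to the membrane, bind partners of the Lrrc4 family in place of Dcc. Many of these proteins stay in use in the adult brain, where they act at synapses and on dendrites.

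Sema3e with Plxnd1, and Sema7a with Plxnc1, are ligands with their receptors, and the 250 bases before the start of these genes are printed because the genes of each pair differed by striatal region, together or in opposite directions. Sema3e and Plxnd1 were both higher in dorsal than ventral striatum, and Sema7a was higher there while Plxnc1 was lower. Sequences are from RefSeq on build GRCm38.p6, 5′ to 3′ on the strand of the gene, and capitals mark GC boxes (GGGCGG on either strand). The windows lie at chr5:14025026-14025275 (plus strand), chr6:115995006-115995255 (minus), chr9:57939862-57940111 (plus) and chr10:94944846-94945095 (minus), in the order printed.
Sema3e: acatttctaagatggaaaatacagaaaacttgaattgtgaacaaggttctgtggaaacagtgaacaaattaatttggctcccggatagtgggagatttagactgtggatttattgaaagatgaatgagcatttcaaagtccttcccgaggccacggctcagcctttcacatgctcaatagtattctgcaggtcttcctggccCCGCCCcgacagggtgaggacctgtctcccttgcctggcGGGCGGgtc
Plxnd1: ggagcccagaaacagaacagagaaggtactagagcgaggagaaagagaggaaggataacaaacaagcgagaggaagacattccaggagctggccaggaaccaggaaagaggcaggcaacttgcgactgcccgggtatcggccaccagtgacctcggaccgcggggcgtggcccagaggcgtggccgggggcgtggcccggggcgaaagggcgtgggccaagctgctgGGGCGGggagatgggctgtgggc
Sema7a: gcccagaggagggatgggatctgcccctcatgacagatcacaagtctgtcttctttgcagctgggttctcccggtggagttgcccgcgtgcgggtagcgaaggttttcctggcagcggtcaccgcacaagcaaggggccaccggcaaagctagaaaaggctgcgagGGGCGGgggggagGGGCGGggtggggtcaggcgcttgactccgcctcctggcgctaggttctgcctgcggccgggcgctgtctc
Plxnc1: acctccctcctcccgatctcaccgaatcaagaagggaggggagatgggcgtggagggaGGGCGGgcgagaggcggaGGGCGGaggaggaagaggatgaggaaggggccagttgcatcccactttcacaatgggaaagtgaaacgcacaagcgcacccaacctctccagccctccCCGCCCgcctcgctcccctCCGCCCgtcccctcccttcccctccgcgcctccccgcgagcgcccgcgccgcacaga
The GC content of the windows was 48.0%, 64.8%, 66.4% and 68.8%, and they held 2, 1, 2 and 4 GC boxes. Among 32851 RefSeq windows of the same length, the median GC content was 52.4%, and 32.74% held a GC box. Neither the cyclic AMP response element TGACGTCA nor its shorter core TGACG, searched on both strands with the core also counted inside the full element, was among the letters of these windows (1.55% and 17.77% of all windows held them), nor was TATAAA (12.37%). Such matches describe letters only.

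Most guidance genes were on ribosomes in these neurons, at very different levels. The highest group mean reached 10 CPM in 32 of 72 genes, lay between 1 and 10 CPM in 25 and stayed under 1 CPM in 15. The 15 low genes were Epha1, Epha2, Ephb4, Efna1, Efna4, Sema3b, Sema3d, Sema3g, Sema4c, Sema6c, Plxnb3, Robo3, Robo4, Ntn3 and Ntn5. Both neuropilins, all 3 Slits, all 3 ephrin-Bs and all 6 netrin receptors reached 1 CPM in some group, against 4 of 7 class 3 semaphorins, 2 of 4 Robos and 2 of 4 netrins. In the 6 comparisons of group pairs, 42 genes passed the filter on low values every time, 13 in some and 17 in none. A gene that passed only through its higher group had to differ, so counts over tested genes are not counts over all 72.

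On a scale of mean CPM per kilobase of exon, which allows genes to be compared, the EphA receptor Epha4 and the ephrins Efnb2 and Efnb3 were among the 4 most abundant members in all 4 striatal groups. Epha4, which binds ephrins of both classes, had 13.2 CPM per kb in D2 dorsal, 9.53 in D1 dorsal, 8.49 in D2 ventral and 5.98 in D1 ventral striatum. Sema7a, a semaphorin held in the membrane by a lipid anchor, was second to Epha4 in both dorsal groups, with 8.04 and 8.55 CPM per kb, and first in prefrontal cortex with 7.90. The netrin receptor Unc5a stood next to it in cortex at 7.88 CPM per kb. Efnb2 led the ventral groups, at 8.49 in D1 and 9.37 CPM per kb in D2. The map of group means shows each gene against its own average, so it does not compare levels between genes.

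**Figure D1:**
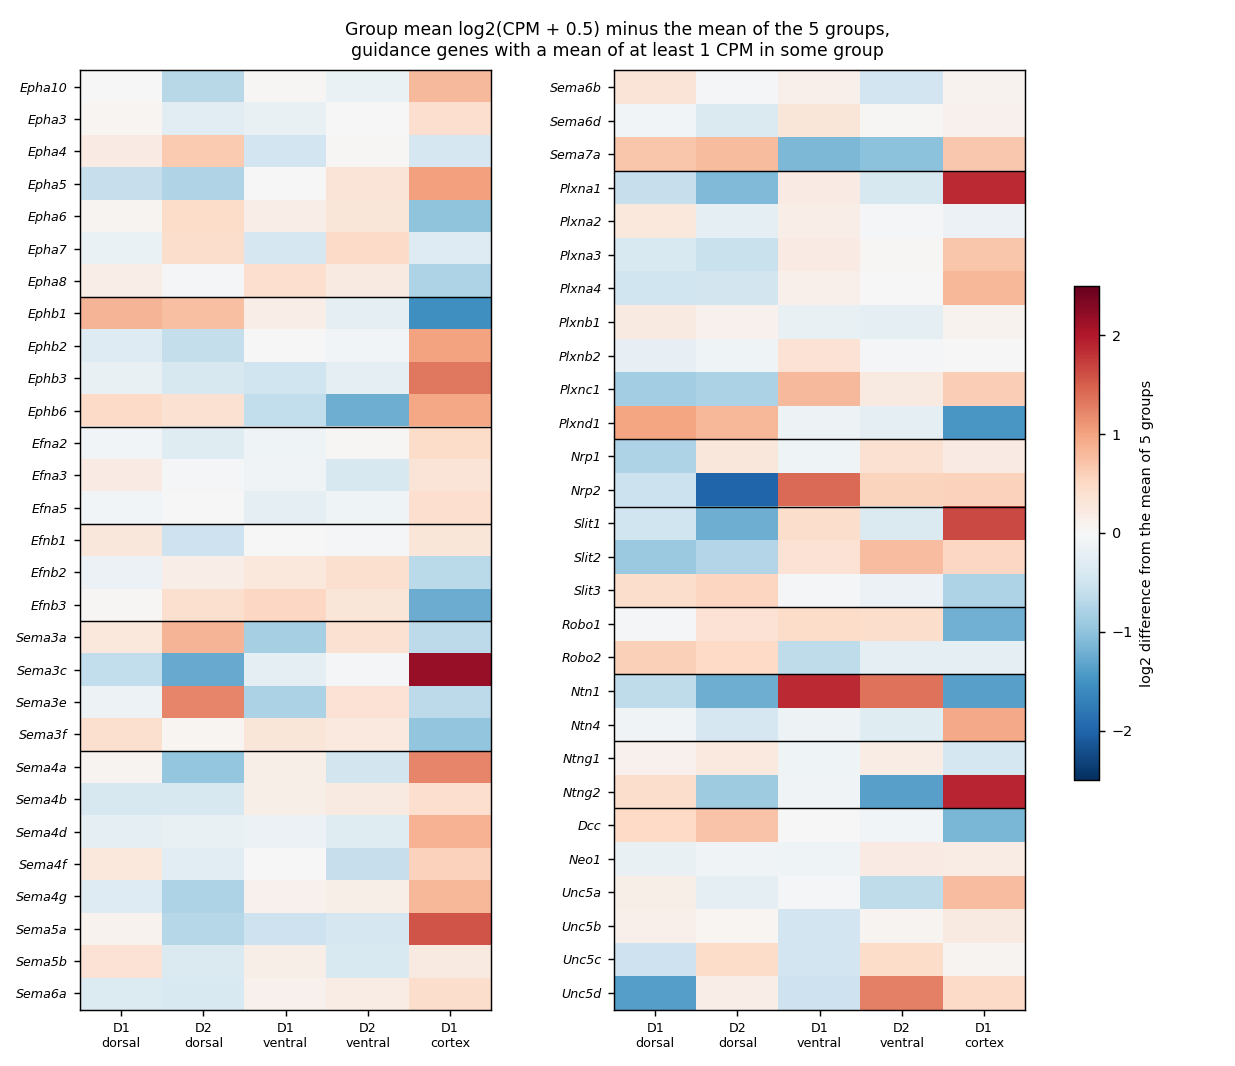
Mean log2(CPM + 0.5) of each of the 5 groups (columns) minus the mean of the 5 groups, for the 57 guidance genes (rows, families parted by lines) whose mean reached 1 CPM in some group. Red is above and blue below the gene's own average. Cortex is red for Sema3c, Plxna1, Ntng2 and Slit1, Ntn1 is red in both ventral groups, and Sema3e and Sema3a are bluer in D1 than in D2 columns of the same region.

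Neurons marked by D2 carried more Unc5d, Unc5c, Sema3e, Sema3a, Nrp1, Epha4 and Epha7 mRNA on ribosomes than those marked by D1 in both striatal regions, and less Ntng2, Nrp2, Sema4a, Sema4f, Sema5b and Plxna1. In dorsal striatum, 19 of 44 guidance genes tested were called different (adjusted p under 0.05), beside 25.9% of all genes tested. Of these, 8 were higher in D1 (12.8% of all genes) and 11 lower (13%), and 6 differed at least 2-fold (3.36%). In ventral striatum, 24 of 48 were called beside 47.7% of all genes, a share near the background, with 14 higher in D1 (24.1%), 10 lower (23.6%) and 4 at least 2-fold (3.62%). The 13 genes named first were called in both regions, 68.4% of the dorsal and 54.2% of the ventral calls, and all 13 differed in the same direction. Of the 13, Unc5d, Unc5c, Sema3e, Sema3a and Ntng2 passed in both regions under every alternative run. When the fit held each library's share of reads in genes (the gene-read share) as a covariate, Epha4, Epha7, Nrp1, Nrp2, Sema4a, Sema4f and Plxna1 did not pass in ventral striatum, and Sema4f and Plxna1 did not pass in dorsal striatum. Within EM libraries, or with the name code as covariate, Sema4f, Sema5b and Plxna1 did not pass in dorsal striatum. Within EM libraries Sema4a and Plxna1 did not pass in ventral striatum, and Sema5b did not pass in ventral striatum without the filter on low values. The dorsal and ventral comparisons share no library, but the labels do not say if their pools shared mice, so they may not be independent. Groups did not overlap for 2 genes, Sema3e and Unc5d, in each region (1.18% and 1.34% of all genes tested).

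Unc5d, a repulsive netrin receptor that also binds FLRT proteins, showed the largest receptor difference of the members tested in both regions on the log2(CPM + 0.5) scale. The ranking depends on that scale: as a plain ratio of means, Nrp2 differed more in dorsal striatum. Its means there were 2.70 CPM in D1 and 0.659 CPM in D2, against 2.86 and 9.31 CPM for Unc5d. Unc5d ran from 1.04 to 4.60 CPM (median 3.28) in D1 dorsal libraries and from 5.74 to 15.7 CPM (median 8.91) in D2 dorsal libraries. Every D2 dorsal library stood above every D1 dorsal library. The D1 minus D2 difference was taken on log2(CPM + 0.5), a scale that shrinks the changes of low genes, and was -1.57 (SE 0.17, limma adjusted p = 6.09e-09). In ventral striatum the range was 3.06 to 8.66 CPM (median 5.35) in D1 and 10.8 to 34.5 CPM (median 20.5) in D2. Again all D2 libraries were above all D1 libraries, with a log2 difference of -1.75 (SE 0.13, limma adjusted p = 1.18e-12). Within EM libraries alone the values were -1.47 (adjusted p = 5.61e-05) in dorsal and -1.53 (adjusted p = 7.67e-08) in ventral striatum. Its relative Unc5c showed the same order with some overlap, at 5.21 to 12.6 CPM (median 8.49) in D1 and 10.8 to 31.4 CPM (median 16.2) in D2 dorsal libraries. In 13 of 16 D2 dorsal libraries Unc5c was above every D1 library, and the log2 difference was -0.96 (limma adjusted p = 7.77e-07) in dorsal and -0.91 (limma adjusted p = 4.47e-07) in ventral striatum.

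The other netrin receptors did not share this order. Dcc, the attractive receptor, differed by -0.19 (SE 0.12, limma adjusted p = 0.234) in dorsal and 0.10 (SE 0.099, limma adjusted p = 0.417) in ventral striatum, with 95% intervals of -0.42 to 0.05 and -0.10 to 0.30. Unc5a ran from 12.5 to 24.7 CPM (median 17.4) in D1 and 6.05 to 22.3 CPM (median 11.2) in D2 ventral libraries, a log2 difference of 0.65 (limma adjusted p = 6.20e-04) in the opposite direction to Unc5c and Unc5d. In dorsal striatum the Unc5a difference was 0.43 (limma adjusted p = 0.0910) and was not called. Neo1 (neogenin), a receptor of netrins and of repulsive guidance molecules, was called in ventral striatum, at -0.32 (limma adjusted p = 0.00990), and not in dorsal striatum (-0.08, limma adjusted p = 0.639), and whether its receptor difference differed between regions was tested by the interaction below, which did not call it (0.24, limma adjusted p = 0.494). With the gene-read share as a covariate neither Unc5a nor Neo1 passed in ventral striatum.

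**Figure D2:**
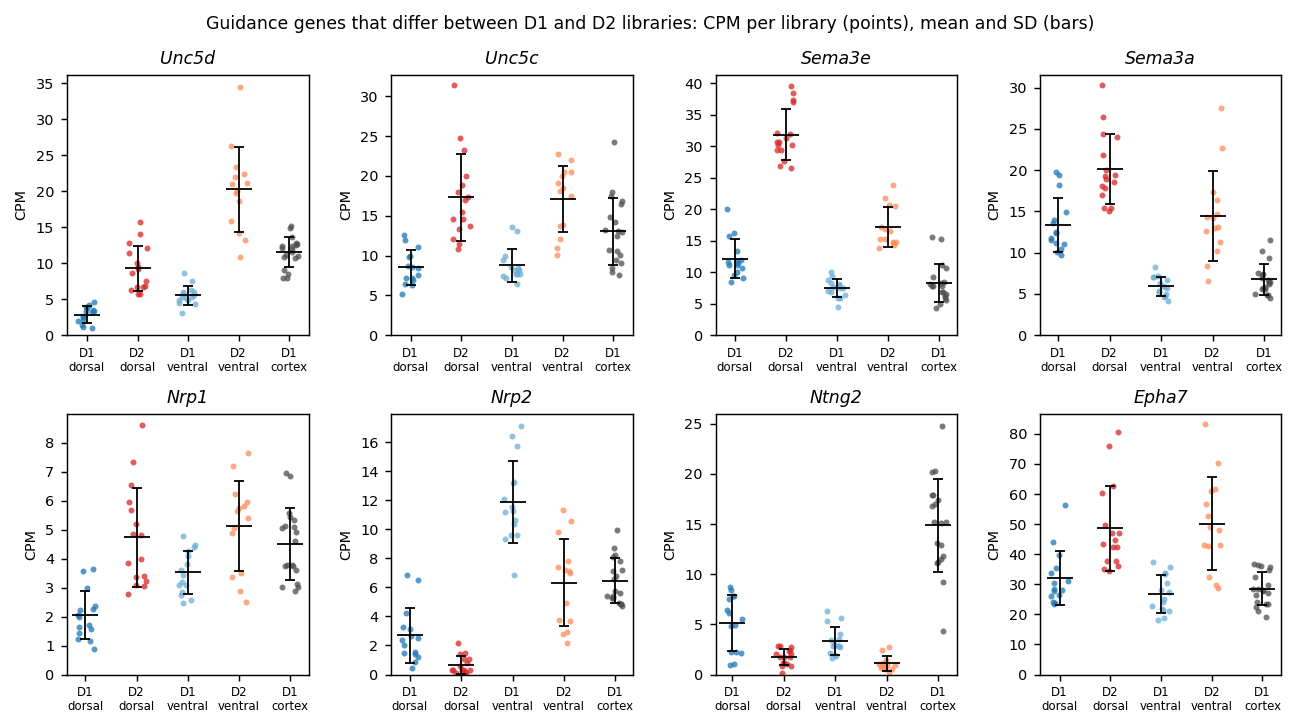
CPM per library (points) with mean and SD (bars) of 8 guidance genes in the 5 groups. The D2 mean is above the D1 mean of the same region for Unc5d, Unc5c, Sema3e, Sema3a, Nrp1 and Epha7, with no overlap of libraries for Unc5d and Sema3e, and below it for Nrp2 and Ntng2.

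Of 3 class 3 semaphorins tested in each region, Sema3e and Sema3a were lower in D1. Sema3e, the secreted ligand of Plxnd1, ran from 8.51 to 20.1 CPM (median 11.4) in D1 and from 26.6 to 39.6 CPM (median 30.7) in D2 dorsal libraries. The groups did not overlap, and the log2 difference was -1.38 (SE 0.097, limma adjusted p = 7.24e-14), 2.60-fold lower in D1. In ventral striatum it ran from 4.50 to 10.0 CPM (median 7.53) in D1 and 13.9 to 23.8 CPM (median 15.9) in D2. These groups did not overlap either, and the difference was -1.16 (SE 0.10, limma adjusted p = 8.78e-11). Within EM libraries the differences were -1.41 (adjusted p = 2.23e-09) and -1.08 (adjusted p = 6.09e-08). Sema3a, a secreted repellent read by Nrp1 and A-type plexins, differed by -0.58 (limma adjusted p = 1.39e-04) in dorsal striatum. In ventral striatum it ran from 4.11 to 8.22 CPM (median 5.80) in D1 and 6.55 to 27.5 CPM (median 13.6) in D2, and 13 of 14 D2 libraries stood above every D1 library, with a difference of -1.15 (SE 0.14, limma adjusted p = 1.06e-07) and -0.97 (adjusted p = 4.01e-05) within EM. Sema3a was 1 of the 3 members that differed between EM and OdP libraries of D2 dorsal striatum.

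Nrp1 and Nrp2, the neuropilin co-receptors, went in opposite directions. Nrp1 ran from 0.894 to 3.65 CPM (median 1.98) in D1 and from 2.79 to 8.61 CPM (median 4.41) in D2 dorsal libraries. In 10 of 16 D2 libraries it was above every D1 library. Its log2 difference was -1.04 (SE 0.16, limma adjusted p = 5.61e-06), and -1.38 (adjusted p = 9.46e-06) within EM. In ventral striatum the Nrp1 difference was smaller, -0.45 (limma adjusted p = 0.00784), and the test of the change in difference between regions gave -0.59 (limma adjusted p = 0.138) over all libraries and -0.94 (adjusted p = 0.0302) within EM, where it passed. Nrp2, which reads other class 3 semaphorins such as Sema3c and Sema3f, ran from 0.474 to 6.82 CPM (median 2.41) in D1 dorsal libraries. Its range in D2 dorsal libraries was 0 to 2.17 CPM (median 0.320). In 8 of 15 D1 libraries it stood above every D2 library, and the difference was 1.42 (SE 0.26, limma adjusted p = 6.92e-05), or 1.19 (adjusted p = 0.0191) within EM. The ventral difference was 0.97 (limma adjusted p = 9.92e-05). Neither neuropilin passed in ventral striatum with the gene-read share as a covariate. Plxnd1, the receptor of Sema3e, did not follow its ligand: its D1 minus D2 difference was 0.20 (SE 0.16, limma adjusted p = 0.361) in dorsal and 0.12 (SE 0.16, limma adjusted p = 0.559) in ventral striatum, with 95% intervals of -0.12 to 0.53 and -0.20 to 0.44.

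Among Eph receptors, the A class was lower in D1 where it was called. In dorsal striatum 3 of 4 tested EphA genes were lower in D1 and 0 higher, beside 13% of all genes lower. In ventral striatum 3 of 5 were lower and 0 higher, beside 23.6% of all genes lower. Epha4 ran from 36.9 to 76.2 CPM (median 60.1) in D1 and 62.7 to 95.8 CPM (median 84.2) in D2 dorsal libraries, a difference of -0.48 (limma adjusted p = 1.22e-04), and differed by -0.51 (limma adjusted p = 4.46e-05) in ventral striatum. Epha7, a receptor of ephrin-As, differed by -0.59 (limma adjusted p = 6.56e-04) and -0.87 (limma adjusted p = 6.20e-06). Epha6 was the third dorsal call (-0.40, limma adjusted p = 0.0290) and Epha5 the third ventral call (-0.30, limma adjusted p = 0.0290), and neither passed within EM libraries, at -0.30 (adjusted p = 0.333) and -0.26 (adjusted p = 0.147). Values scaled to the reads in genes also left both out of the calls. With the gene-read share as a covariate none of the 3 ventral EphA calls passed. The EphB receptors Ephb1 and Ephb6, the second of which has no active kinase, were higher in D1 ventral libraries, by 0.39 (limma adjusted p = 0.00529) and 0.66 (limma adjusted p = 0.00133), and were not called in dorsal striatum (0.09, limma adjusted p = 0.426 and 0.13, limma adjusted p = 0.428). The ventral call of Ephb1 was lost within EM libraries and that of Ephb6 with the share as a covariate. Efnb2 and Efnb3, the ligands of EphB receptors, were lower in D1 dorsal striatum, at -0.32 (limma adjusted p = 0.00976) and -0.33 (limma adjusted p = 0.0403), and within EM libraries neither passed, at -0.40 (adjusted p = 0.0523) and -0.49 (adjusted p = 0.0566).

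Ntng2, the netrin-G that binds Lrrc4-family partners, was higher in D1 in both regions. It ran from 0.981 to 8.71 CPM (median 5.49) in D1 and from 0.152 to 2.88 CPM (median 1.79) in D2 dorsal libraries. In 10 of 15 D1 libraries it was above every D2 library, with a difference of 1.22 (SE 0.26, limma adjusted p = 5.97e-04) and 1.36 (adjusted p = 0.0173) within EM. In ventral striatum it ran from 1.66 to 6.35 CPM (median 2.87) in D1 and 0.253 to 2.74 CPM (median 0.971) in D2, a difference of 1.29 (SE 0.19, limma adjusted p = 2.01e-06) and 1.21 (adjusted p = 7.41e-04) within EM. On the annotation, 20.4% of the exon bases of Ntng2 also belong to 6530402F18Rik on the same strand, and the reads of the 2 cannot be told apart. Its relative Ntng1 was not called in either region (-0.06, limma adjusted p = 0.814 and -0.25, limma adjusted p = 0.126). Sema4a, a membrane semaphorin also known in immune cells, ran from 1.85 to 5.74 CPM (median 3.94) in D1 and 0.460 to 3.12 CPM (median 1.48) in D2 dorsal libraries, a difference of 1.09 (SE 0.17, limma adjusted p = 4.49e-06) and 0.85 (adjusted p = 0.00141) within EM. The membrane semaphorins called were all higher in D1: Sema4a, Sema4f, Sema5a and Sema5b of 10 tested in dorsal striatum and Sema4a, Sema4f, Sema5b and Sema6b of 11 in ventral striatum. Of all genes, 12.8% and 24.1% were called higher and 25.9% and 47.7% called in all. The ventral count, 36.4% of those tested, is above the share of all genes called higher and below the share called in either direction. Sema4f, Sema5b and Plxna1 did not pass within EM libraries of dorsal striatum, at 0.41 (adjusted p = 0.330), 0.59 (adjusted p = 0.0917) and 0.53 (adjusted p = 0.150). Of the 4 ventral calls, Sema5b alone passed with the gene-read share as a covariate.

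Ntng2, Nrp2, Sema4a, Sema4f, Sema5a and Plxna1 were higher in D1 dorsal striatum and also higher in prefrontal cortex than there. Plxna2, higher in D1 dorsal striatum, was lower in cortex, with a difference of -0.39 (limma adjusted p = 0.00201), and Sema5b was not called against cortex (-0.16, limma adjusted p = 0.516). Nrp1, Unc5c and Unc5d, lower in D1 dorsal striatum, were higher in cortex, by 1.00 (limma adjusted p = 4.88e-08), 0.56 (limma adjusted p = 4.47e-04) and 1.92 (limma adjusted p = 2.54e-15). Of the other 8 members lower in D1 dorsal striatum, 7 were lower in cortex than there and Epha7 was not called (-0.14, limma adjusted p = 0.266). Markers of cortical excitatory neurons moved with the receptor comparison. The sum of the 4 markers (Slc17a7, Neurod6, Neurod2 and Tbr1) ran from 23.9 to 107.5 CPM in D1 and 0.928 to 27.9 CPM in D2 dorsal libraries, and from 13.7 to 92.1 CPM in D1 and 2.79 to 66.4 CPM in D2 ventral libraries, with none of the 4 at 0 throughout a group. Markers of GABA interneurons summed to 21.0 to 59.6 CPM in D1 and 7.03 to 29.6 CPM in D2 dorsal libraries, and to 23.4 to 45.4 and 24.6 to 46.9 CPM in the ventral ones. In the other direction, 3 cholinergic markers summed to at most 2.69 CPM in D1 striatal libraries and to 2.89 to 15.1 CPM in D2 striatal libraries, and 5 oligodendrocyte markers to 35.5 to 134.4 CPM in D1 and 55.6 to 183.3 CPM in D2. Their part in the receptor differences was not tested. Without D2 dorsal replicate 1 the dorsal count was again 19, and without D2 ventral replicate 2 the ventral count was again 24.

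The share of a library's reads that fell in genes also moved with the receptor comparisons. In ventral striatum it was 35.1% ± 1.64 in D1 (SD, n = 15) and 38.0% ± 1.5 in D2 (SD, n = 14), and in dorsal striatum 35.4% ± 2.45 (SD, n = 15) and 36.8% ± 2.01 (SD, n = 16). With that share as a covariate, 10 of 48 guidance genes were called in ventral striatum in place of 24, and 8 were the same genes. Over all genes the share called fell from 47.7% to 10.7% in that fit, beside 20.8% of the guidance genes. In dorsal striatum 17 guidance genes were called in place of 19, or 38.6% of those tested, and 20.5% of all genes in place of 25.9%. Scaling to the reads in genes shifted the ventral split from 14 higher and 10 lower in D1 to 18 and 8.

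A test of the interaction asked which guidance genes had a D1 minus D2 difference that itself differed between dorsal and ventral striatum. It called 2 of 52, beside 2.64% of all genes tested. Plxnc1, the receptor of Sema7a, ran from 2.43 to 6.81 CPM (median 4.88) in D1 and 3.34 to 8.11 CPM (median 5.18) in D2 dorsal libraries, and from 12 to 27.1 CPM (median 15.7) in D1 and 6.91 to 17 CPM (median 9.60) in D2 ventral libraries. The dorsal groups overlapped, while 6 of 15 D1 ventral libraries stood above every D2 one. The interaction was -0.68 (SE 0.17, limma adjusted p = 0.0132), and -0.46 (adjusted p = 0.289) within EM libraries, where it did not pass. Efnb3, an ephrin that binds EphB receptors and Epha4, ran from 12.4 to 24.9 CPM (median 18.5) in D1 and 13.5 to 43.5 CPM (median 25) in D2 dorsal libraries, and from 21.5 to 38.4 CPM (median 25) and 12.9 to 29.5 CPM (median 23.6) in the ventral groups. All 4 ranges overlapped, and the interaction was -0.56 (SE 0.16, limma adjusted p = 0.0436). Efnb3 no longer passed without D2 dorsal replicate 1 (adjusted p = 0.0515) or within EM libraries (adjusted p = 0.123).

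**Figure D3:**
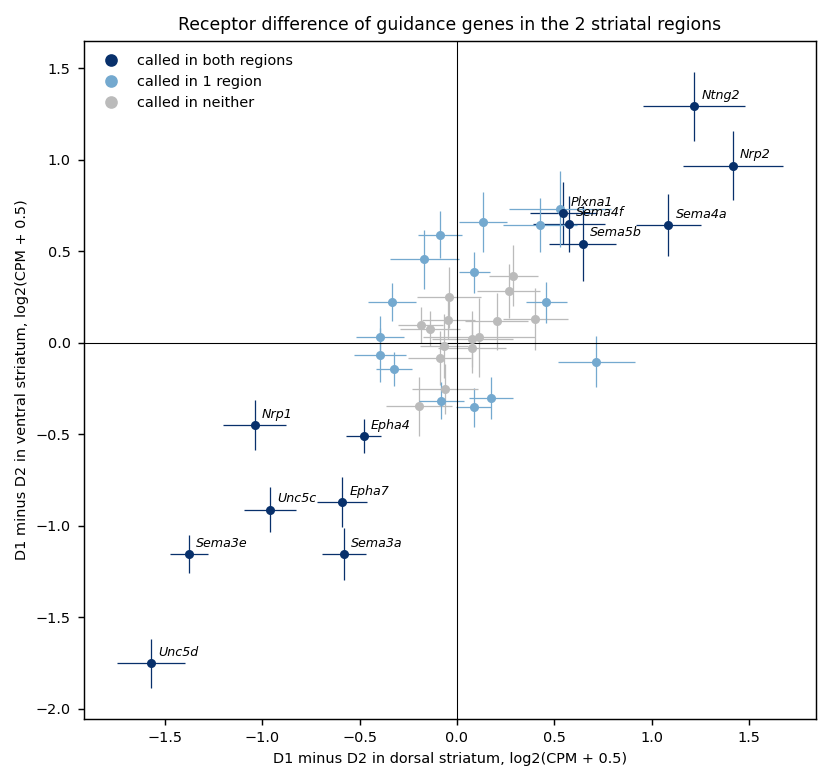
D1 minus D2 difference in dorsal (x axis) and ventral striatum (y axis), both in log2(CPM + 0.5) with SE bars, for the 43 guidance genes tested in both regions. The 13 genes called in both regions (dark, named) lie to the upper right or the lower left, from Unc5d at -1.57 and -1.75 to Ntng2 at 1.22 and 1.29.

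Dorsal and ventral striatum differed in ligands and receptors of several families. Ntn1, Nrp2, Plxnc1, Slit2 and Unc5d were lower in dorsal than in ventral striatum, and Sema7a, Plxnd1, Ephb6, Robo2, Sema3a and Sema3e were higher, in D1 and in D2 libraries alike. In D1 libraries, 30 of 47 genes tested were called beside 34.6% of all genes: 12 were higher in dorsal striatum (10.1%), 18 lower (24.5%) and 10 at least 2-fold different (3.45%). In D2 libraries, 23 of 45 were called beside 28.5%, with 10 higher (7.93%), 13 lower (20.6%) and 8 at least 2-fold (4.15%). Groups did not overlap for 9 genes in D1 (2.65% of all genes) and 7 in D2 (1.46%). The 2 comparisons share no library. Called in both were 21 genes, 70% of the D1 and 91.3% of the D2 calls, and all 21 in the same direction. In D2, Efnb2, Sema3a, Sema4b, Sema6a and Plxna1 of these were not called under at least 1 alternative. In D1 this held for Sema6a and Slit3. The median of all genes tested was -0.12 in both comparisons, which became -0.014 (D1) and 0.005 (D2) after median-ratio scaling. Under it 13 members were higher and 16 lower in D1, and 12 and 10 in D2. edgeR, which changes the test as well as the scaling, gave 15 and 15 in D1 and 13 and 8 in D2. The medians of the members were -0.05 in D1 and 0.01 in D2.

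Ntn1 (netrin-1), the founding attractant of commissural axons, was higher in ventral than in dorsal striatum. In both receptors it passed the filter on low values through its ventral libraries alone, so it was tested only because it was high there. It ran from 0.292 to 1.86 CPM (median 0.856) in D1 and 0 to 1.13 CPM (median 0.431) in D2 dorsal libraries. The ventral ranges were 5.54 to 11.1 CPM (median 7.84) in D1 and 2.58 to 7.81 CPM (median 5.45) in D2. No dorsal library reached a ventral library of the same receptor, and the dorsal minus ventral difference was -2.54 (SE 0.13, limma adjusted p = 6.01e-17) in D1 and -2.59 (SE 0.17, limma adjusted p = 2.50e-14) in D2, 5.83 and 6.01-fold on that scale. Within EM libraries it was -2.48 (adjusted p = 5.21e-12) and -2.57 (adjusted p = 5.99e-07). Its attractive receptor Dcc had the opposite order, at 8.11 to 16 CPM (median 13) in D1 dorsal and 7.35 to 11.4 CPM (median 8.92) in D1 ventral libraries. The Dcc difference was 0.48 (limma adjusted p = 5.03e-05) in D1 and 0.77 (limma adjusted p = 8.50e-06) in D2. The repulsive receptor Unc5d was ordered as Ntn1 was: it was lower in dorsal striatum, with a log2 difference of -0.91 (SE 0.16, limma adjusted p = 2.43e-05) in D1 and -1.09 (SE 0.15, limma adjusted p = 7.87e-07) in D2, and -0.98 (adjusted p = 0.00173) within EM libraries of D2, while Unc5c differed by -0.05 (limma adjusted p = 0.774) and -0.00 (limma adjusted p = 1.00).

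Neuropilins and plexins marked the regions next. Nrp2 ran from 0.474 to 6.82 CPM (median 2.41) in D1 dorsal and 6.83 to 17.1 CPM (median 11.2) in D1 ventral libraries. It did not overlap between regions in D1, with a difference of -2.13 (SE 0.21, limma adjusted p = 4.72e-10) and -2.02 (adjusted p = 4.27e-07) within EM. In D2 it ran from 0 to 2.17 CPM (median 0.320) and 2.18 to 11.4 CPM (median 7.08). These did not overlap either, and the difference was -2.58 (SE 0.24, limma adjusted p = 1.52e-10), with -2.70 (adjusted p = 2.27e-07) within EM. Plxnc1 was lower in dorsal striatum, with a log2 difference of -1.67 (SE 0.12, limma adjusted p = 1.80e-13) in D1, where no library overlapped, and -0.99 (limma adjusted p = 8.80e-08) in D2. Its ligand Sema7a had the opposite order, from 16 to 38.1 CPM (median 25.4) in D1 dorsal and 4.17 to 11.3 CPM (median 7.45) in D1 ventral libraries. In D1 every dorsal library was above every ventral one, and the Sema7a difference was 1.83 (SE 0.12, limma adjusted p = 5.85e-15), or 1.68 (adjusted p = 8.40e-11) within EM. In D2 the ranges were 14 to 42.6 CPM (median 28.8) and 3.23 to 17.6 CPM (median 6.78), and 15 of 16 dorsal libraries stood above every ventral one, a difference of 1.88 (SE 0.18, limma adjusted p = 1.35e-10).

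Plxnd1 and its ligand Sema3e were both higher in dorsal striatum. Plxnd1 ran from 15.3 to 33.7 CPM (median 19.5) in D1 dorsal and 5.24 to 14.7 CPM (median 8.28) in D1 ventral libraries. The groups did not overlap, and the difference was 1.13 (SE 0.12, limma adjusted p = 2.40e-09). In D2 libraries the ranges were 4.70 to 28.8 CPM (median 18.9) and 4.57 to 14.1 CPM (median 7.72), and the difference was 1.04 (SE 0.19, limma adjusted p = 5.42e-05), and 0.94 (adjusted p = 0.0131) within EM. Sema3e was higher in dorsal striatum by 0.66 (limma adjusted p = 1.17e-05) in D1 and, with no overlap, by 0.88 (limma adjusted p = 1.00e-09) in D2. Sema3a was higher in D1 dorsal than D1 ventral libraries without overlap, by 1.09 (SE 0.11, limma adjusted p = 3.86e-10), and higher by 0.52 (limma adjusted p = 0.00573) in D2. That D2 call was lost under at least 1 alternative. The A-type plexins Plxna1 and Plxna4 were lower in dorsal striatum, Plxna1 at -0.83 (limma adjusted p = 3.19e-06) and -0.67 (limma adjusted p = 0.0121) and Plxna4 at -0.65 (limma adjusted p = 1.22e-04) and -0.48 (limma adjusted p = 0.00179) in D1 and D2. The D2 call of Plxna1 was also lost under at least 1 alternative. Plxna2, with the most CPM per kb of any plexin in D1 dorsal libraries (5.66), differed by 0.08 (limma adjusted p = 0.620) and -0.16 (limma adjusted p = 0.263).

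**Figure D4:**
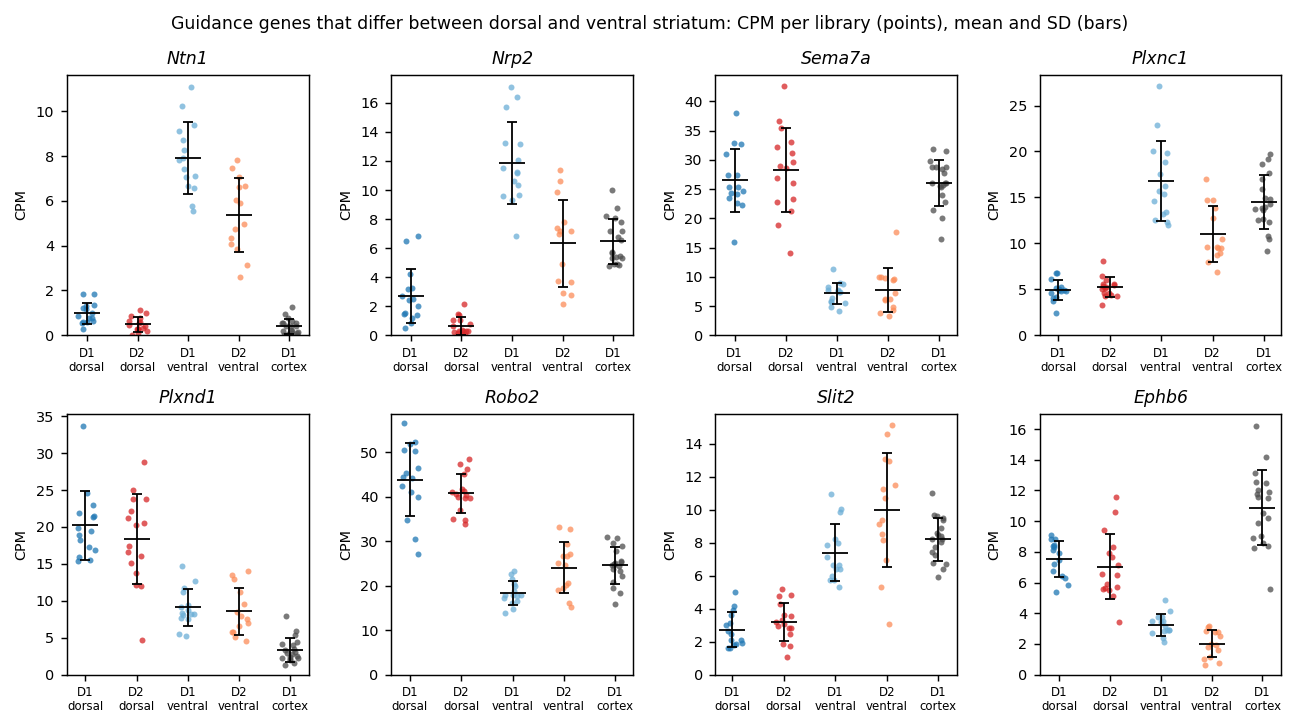
CPM per library (points) with mean and SD (bars) of 8 guidance genes in the 5 groups. Ntn1 lies between 2.58 and 11.1 CPM in ventral libraries and at or below 1.86 CPM in dorsal and cortical ones; Sema7a, Plxnd1, Robo2 and Ephb6 are higher in dorsal than in ventral striatum, and Nrp2, Plxnc1 and Slit2 are lower.

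Slits and Robos did not move as one. Slit2, a repellent, ran from 1.60 to 5.00 CPM (median 2.45) in D1 dorsal and 5.30 to 11 CPM (median 6.66) in D1 ventral libraries. Every ventral library was above every dorsal one, and the difference was -1.33 (SE 0.14, limma adjusted p = 1.08e-09). In D2 the ranges were 1.07 to 5.18 CPM (median 3.10) and 3.04 to 15.1 CPM (median 10.0), with 13 of 14 ventral libraries above every dorsal one and a difference of -1.48 (SE 0.19, limma adjusted p = 1.28e-07), and -1.20 (adjusted p = 0.00631) within EM. Slit1 was lower in D1 dorsal striatum, with a log2 difference of -1.01 (SE 0.17, limma adjusted p = 1.30e-05), and in D2 it was under the filter. Slit3 went the other way, higher in dorsal striatum by 0.43 (limma adjusted p = 0.0198) in D1 and 0.65 (limma adjusted p = 2.82e-05) in D2. Under at least 1 alternative its D1 difference was not called. The receptor Robo2 ran from 27.1 to 56.5 CPM (median 44.5) in D1 dorsal and 13.8 to 23.3 CPM (median 17.8) in D1 ventral libraries, with no overlap. Its difference was 1.22 (SE 0.094, limma adjusted p = 1.12e-12) in D1 and, again with no overlap, 0.78 (limma adjusted p = 1.64e-07) in D2. Robo1 was lower in D1 dorsal libraries, with a log2 difference of -0.50 (limma adjusted p = 5.77e-04) and was not called in D2 (-0.08, limma adjusted p = 0.704). Whether the Robo1 difference differed between receptors was tested by the interaction, which has the same value for both contrasts (-0.43, limma adjusted p = 0.206).

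Both tested EphB receptors were higher in dorsal striatum. Ephb6 ran from 5.38 to 9.12 CPM (median 7.94) in D1 dorsal and 2.11 to 4.89 CPM (median 3.15) in D1 ventral libraries, and from 3.44 to 11.6 CPM (median 6.52) and 0.607 to 3.13 CPM (median 1.96) in D2. The regions did not overlap for either receptor, and the differences were 1.11 (SE 0.097, limma adjusted p = 2.60e-11) in D1 and 1.64 (SE 0.18, limma adjusted p = 3.60e-09) in D2. Ephb1 was higher by 0.70 (limma adjusted p = 1.05e-07) in D1 and, without overlap, by 1.00 (limma adjusted p = 1.07e-09) in D2. Among the A class, Epha4 was higher in dorsal striatum (0.66, limma adjusted p = 1.76e-06 and 0.63, limma adjusted p = 2.40e-07) and Epha5 lower. The Epha5 ranges were 3.83 to 7.98 CPM (median 5.70) in D2 dorsal and 9.58 to 23.1 CPM (median 11.2) in D2 ventral libraries. They did not overlap, and the difference was -1.06 (SE 0.12, limma adjusted p = 1.84e-08), with -1.11 (adjusted p = 1.27e-04) within EM. In D1 it was -0.59 (limma adjusted p = 2.45e-05). The ligand Efnb2 was lower in dorsal striatum, with a log2 difference of -0.41 (limma adjusted p = 0.00114) in D1 and -0.23 (limma adjusted p = 0.0455) in D2, and within EM libraries of D2 it was -0.15 (adjusted p = 0.488). Without D2 dorsal replicate 1, 20 members were called in D2 in place of 23, and Efnb2, Sema4a and Neo1 were the 3 that no longer passed. Efnb2 and Sema4a were also not called without D2 ventral replicate 2, nor with median-ratio scaling or edgeR. Cortical marker sums also differed between regions, as given above, with medians of 78.9 CPM in D1 dorsal and 53.4 CPM in D1 ventral libraries. In D2, sums of GABA interneuron markers had medians of 14.1 CPM in dorsal and 33.7 CPM in ventral libraries. In D1 the order was the reverse, with medians of 37.2 CPM in dorsal and 28.5 CPM in ventral libraries. Within D2, Pvalb went against the sum, with medians of 2.54 CPM in dorsal and 0.55 CPM in ventral libraries. In D2, 3 choroid plexus markers summed to 1.33 to 37.6 CPM (median 8.93) in dorsal and 2.41 to 5.97 CPM (median 4.19) in ventral libraries. In D1 they summed to 0.589 to 41.5 CPM (median 5.00) in dorsal and 2.61 to 5.2 CPM (median 3.45) in ventral libraries. The 3 did not move together: Ttr reached 36.8 CPM in D2 dorsal and 3.47 CPM in D2 ventral libraries, Kl had lower medians in dorsal than in ventral striatum (1.52 and 3.43 CPM in D2), and Folr1 was at most 0.166 CPM in D2. The 3 cholinergic markers had median sums of 6.32 CPM in D2 dorsal and 12.2 CPM in D2 ventral libraries, and 0.751 and 1.34 CPM in D1. Those of 2 oligodendrocyte precursor markers were 2.38 and 4.82 CPM in D2, and 0.876 and 0.700 CPM in D1. The part of these cell types in the regional differences was not tested.

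Prefrontal cortex differed from both parts of the striatum in most guidance genes. Sema3c, Plxna1, Ntng2, Slit1, Epha5, Sema5a and Unc5d were higher in cortex than in D1 dorsal and D1 ventral striatum, and Plxnd1, Ephb1, Efnb3, Dcc, Robo1, Slit3 and Epha6 lower. Against dorsal striatum, 42 of 52 genes tested were called beside 54.8% of all genes, with 28 higher in cortex (32.3%), 14 lower (22.5%) and 25 at least 2-fold different (16%). Against ventral striatum, 42 of 52 were called beside 62.8%, with 29 higher (27.7%), 13 lower (35.1%) and 19 at least 2-fold (14.2%). Groups did not overlap for 13 genes in each comparison (10.5% and 12.6% of all genes). The 52 include genes, such as Sema3c, that passed the filter only through cortex and so had to differ. The comparisons share the cortical libraries, so their values are given side by side and are not 2 separate tests. The median difference of the members was 0.40 against dorsal and 0.30 against ventral striatum, beside 0.05 and -0.07 over all genes tested.

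Sema3c, a secreted ligand of both neuropilins, had the largest positive difference of the members in both comparisons. Of the 6 comparisons it passed the filter on low values in these 2 alone, through its cortical libraries. It was thus tested only because it was high in cortex, and its rank and adjusted p carry that limit. It ran from 3.82 to 9.55 CPM (median 6.35) in cortex, 0.113 to 1.07 CPM (median 0.536) in D1 dorsal and 0.272 to 1.60 CPM (median 0.714) in D1 ventral striatum. Every cortical library was above every D1 striatal library, and the differences were 2.79 (SE 0.13, limma adjusted p = 3.04e-21) and 2.42 (SE 0.13, limma adjusted p = 1.14e-19). The other class 3 members ran differently: Sema3a and Sema3e were lower in cortex than in dorsal striatum (-0.94, limma adjusted p = 3.51e-09 and -0.57, limma adjusted p = 4.47e-04) and were not called against ventral striatum (0.15, limma adjusted p = 0.214 and 0.09, limma adjusted p = 0.547). Plxna1, a plexin that works with neuropilins, ran from 17.8 to 35.5 CPM (median 24.5) in cortex, 1.96 to 7.54 CPM (median 4.39) in D1 dorsal and 5.10 to 10.3 CPM (median 7.46) in D1 ventral libraries. No library overlapped, and it was higher in cortex by 2.48 (SE 0.12, limma adjusted p = 2.94e-21) and 1.65 (SE 0.088, limma adjusted p = 7.05e-20). On the annotation 10.7% of its exon bases lie over Gm26811 on the opposite strand, and the library kit is not one that marks strand. Plxnd1 had the opposite order, at 1.28 to 7.93 CPM (median 2.88) in cortex, and was lower, with a log2 difference of -2.52 (SE 0.15, limma adjusted p = 1.01e-17) against dorsal striatum, without overlap, and -1.39 (SE 0.16, limma adjusted p = 6.31e-10) against ventral striatum.

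Membrane semaphorins were higher in cortex wherever they were called, 7 of 11 tested against dorsal and 8 of 11 against ventral striatum (6 and 8 with edgeR, which left out Sema4f). Of all genes, 54.8% and 62.8% were called in these comparisons, 32.3% and 27.7% as higher in cortex. Sema5a, a semaphorin with thrombospondin repeats, ran from 16.2 to 55.3 CPM (median 25.2) in cortex and 3.24 to 10.8 CPM (median 6.54) in D1 ventral libraries. The groups did not overlap, and the difference was 2.03 (SE 0.15, limma adjusted p = 3.64e-15). Against dorsal striatum, where 1 library reached 30.7 CPM, it was 1.54 (limma adjusted p = 3.89e-09). Sema7a separated cortex from ventral striatum alone: it ran from 16.5 to 31.9 CPM (median 26) in cortex, above every D1 ventral library, with a difference of 1.82 (SE 0.098, limma adjusted p = 9.33e-20), and its difference from dorsal striatum was -0.02 (limma adjusted p = 0.904) with a 95% interval of -0.20 to 0.17. Its receptor Plxnc1 separated cortex from dorsal striatum (1.47, limma adjusted p = 2.31e-15, without overlap) and its difference from ventral striatum was -0.19 (limma adjusted p = 0.106).

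Netrins, netrin-Gs and their receptors each had members on either side. Ntng2 ran from 4.39 to 24.7 CPM (median 15.2) in cortex, with 18 of 19 libraries above every D1 dorsal library and 18 of 19 above every D1 ventral one. The differences were 1.60 (SE 0.23, limma adjusted p = 9.50e-08) and 2.00 (SE 0.16, limma adjusted p = 5.06e-14). Ntng1 was lower in cortex, at -0.52 (limma adjusted p = 2.17e-04) and -0.33 (limma adjusted p = 0.00758). The second difference, against ventral striatum, was not called under at least 1 alternative. Unc5d ran from 7.90 to 15.1 CPM (median 12) in cortex, above every D1 dorsal library, with differences of 1.92 (SE 0.14, limma adjusted p = 2.54e-15) and 1.00 (limma adjusted p = 1.16e-11); its cortical level lay between those of the 2 D2 striatal groups, whose means were 9.31 and 20.2 CPM. Dcc ran from 2.63 to 6.49 CPM (median 3.26) in cortex, below every D1 striatal library, and was lower, with a log2 difference of -1.67 (SE 0.11, limma adjusted p = 9.08e-17) and -1.19 (limma adjusted p = 1.13e-13). Ntn1 ran from 0 to 1.24 CPM (median 0.393) in cortex and was lower than in D1 ventral striatum, with a log2 difference of -3.30 (SE 0.15, limma adjusted p = 1.14e-22), the largest difference of any member in the 6 comparisons. Here too Ntn1 passed the filter through its ventral libraries alone. Ntn4, a netrin related to laminins, was higher in cortex by 1.04 (limma adjusted p = 2.84e-07) and 1.08 (limma adjusted p = 2.74e-08).

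Slit1 was higher and Robo1 lower in cortex than in both parts of the striatum. Slit1 ran from 3.57 to 11.9 CPM (median 6.26) in cortex, 0.142 to 1.71 CPM (median 1.12) in D1 dorsal and 1.64 to 3.57 CPM (median 2.34) in D1 ventral libraries. Every cortical library was above every striatal one, though the nearest cortical and ventral libraries both round to 3.57 CPM. Its differences were 2.20 (SE 0.16, limma adjusted p = 3.36e-15) and 1.19 (limma adjusted p = 1.07e-11). Robo1 ran from 7.52 to 17.5 CPM (median 10.1) in cortex, 15.5 to 32.5 CPM (median 23.7) in D1 dorsal and 23.7 to 51.1 CPM (median 32.4) in D1 ventral libraries. It was lower in cortex, with a log2 difference of -1.15 (SE 0.10, limma adjusted p = 5.11e-13) and, without overlap, at -1.65 (SE 0.094, limma adjusted p = 6.15e-19). Slit3 was lower, with a log2 difference of -1.18 (SE 0.14, limma adjusted p = 3.18e-09) and -0.75 (limma adjusted p = 1.01e-07), and Slit2 was higher than in dorsal striatum (1.49, limma adjusted p = 3.28e-14) and not called against ventral striatum (0.16, limma adjusted p = 0.127). Robo2 was lower than in dorsal striatum (-0.82, limma adjusted p = 7.17e-10) and higher than in ventral striatum (0.40, limma adjusted p = 4.63e-05), so the cortical level lay between the 2 striatal ones.

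Members of the Eph family were both higher and lower in cortex. Ephb1 ran from 1.69 to 7.44 CPM (median 3.47) in cortex, 15.5 to 29.4 CPM (median 20.2) in D1 dorsal and 9.05 to 17 CPM (median 12.4) in D1 ventral libraries. No cortical library reached a D1 striatal one, and the differences were -2.45 (SE 0.13, limma adjusted p = 8.37e-20) and -1.75 (SE 0.13, limma adjusted p = 2.57e-15). Efnb3 ran from 3.13 to 11 CPM (median 7.74) in cortex, again below every D1 striatal library, and was lower, with a log2 difference of -1.31 (SE 0.12, limma adjusted p = 3.65e-12) and -1.79 (SE 0.11, limma adjusted p = 2.20e-17). Ephb6 was higher in cortex, by 0.48 (limma adjusted p = 1.26e-04) against dorsal and, without overlap, 1.59 (SE 0.11, limma adjusted p = 7.70e-17) against ventral striatum, and Ephb2 was higher by 1.40 (limma adjusted p = 5.02e-11) and 1.04 (limma adjusted p = 9.67e-10). Epha5, at 13.1 to 35.6 CPM (median 19.7) in cortex, was above every D1 dorsal library, with differences of 1.60 (SE 0.10, limma adjusted p = 7.86e-17) and 1.01 (limma adjusted p = 6.54e-12). Epha6 ran from 1.72 to 6.63 CPM (median 3.83) in cortex and was lower, with a log2 difference of -1.07 (limma adjusted p = 2.87e-09) and, without overlap against ventral striatum, at -1.20 (SE 0.11, limma adjusted p = 1.63e-12). Ephb3 was under the filter but had 0.282 to 3.28 CPM (median 1.27) in cortex, against at most 0.639 CPM in any striatal library.

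**Figure D5:**
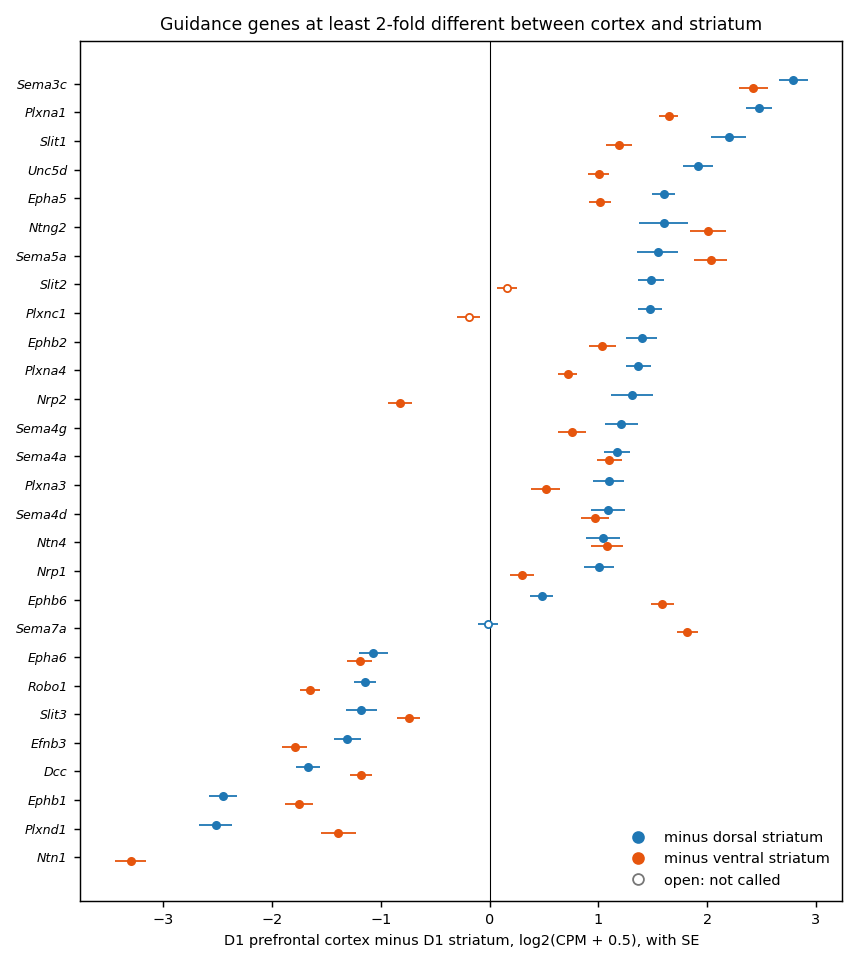
D1 prefrontal cortex minus D1 dorsal (blue) and D1 ventral striatum (orange), in log2(CPM + 0.5) with SE bars, for the 28 guidance genes that were called and at least 2-fold different in either comparison; open points were not called and a missing point was not tested. Sema3c and Plxna1 stand at the top and Plxnd1, Ephb1 and Ntn1 at the bottom; Sema7a, Plxnc1 and Slit2 were called against one part of the striatum and not the other.

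Other markers moved with the cortical comparison too. The 4 cortical excitatory markers summed to at most 107.5 CPM in D1 striatal libraries and at least 447.7 CPM in cortex, GABA interneuron markers to at most 59.6 CPM in D1 striatum and 98.8 to 260.5 CPM in cortex, and 4 astrocyte markers to at most 12.1 CPM in D1 striatum and 8.16 to 50.9 CPM in cortex. The part of these cell types in the differences was not tested. Without the 4 prefrontal libraries that carried the most striatal marker signal, 41 members were called against dorsal striatum and 40 against ventral striatum. Plxna3 in the first and Nrp1 and Neo1 in the second were the members that no longer passed.

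Genes that act with guidance receptors were counted from 2 lists, and the genes named among them were chosen after their values were seen. Among 54 intracellular effectors, 21 of 50 tested were called between D1 and D2 in dorsal striatum (9 higher in D1, 12 lower) and 26 of 52 in ventral striatum (15 and 11). Scaled to the reads in genes, 10 were higher and 6 lower in dorsal striatum and 19 and 9 in ventral striatum. The counts first given are 42% and 50%, beside 25.9% and 47.7% of all genes, so the ventral share is near that of all genes. Ablim1, an actin-binding protein that acts downstream of netrin receptors, was higher in D1 by 1.34 (SE 0.16, limma adjusted p = 3.33e-08) in dorsal and 1.08 (SE 0.098, limma adjusted p = 8.93e-11) in ventral striatum. Dpysl5, a member of the collapsin response mediator family that semaphorin signals act on, was higher in D1 by 0.92 (SE 0.15, limma adjusted p = 1.65e-05) in dorsal striatum. Vav3, an exchange factor that acts downstream of Eph receptors, was lower in D1, with a log2 difference of -0.69 (SE 0.15, limma adjusted p = 5.46e-04) there. Between regions, 22 of 53 tested effectors in D1 and 16 of 51 in D2 were lower in dorsal striatum, and 5 and 4 higher. Of all genes, 24.5% and 20.6% were lower and 10.1% and 7.93% higher, so the calls of all genes leaned the same way. Median-ratio scaling gave 17 lower and 5 higher effectors in D1 and 11 and 7 in D2, and 14.5% and 11.9% of all genes lower beside 14.7% and 12.5% higher. The medians were -0.18 and -0.20, beside -0.12 over all genes. Chn2, a chimaerin that inactivates Rac, was one of these, with means of 25.2 against 97.8 CPM in D1 dorsal and ventral libraries and a difference of -1.97 (SE 0.10, limma adjusted p = 5.73e-17). Its relative Chn1, which acts downstream of Epha4, was among the 2 effectors of 53 that the interaction called (0.41, SE 0.092, limma adjusted p = 0.00463), with Tiam1, a Rac activator (-0.37, SE 0.11, limma adjusted p = 0.0354). That count is near the 2.64% of all genes the interaction called. Against cortex, 39 of 53 (26 higher in cortex, 13 lower) and 36 of 53 (20 and 16) were called for dorsal and ventral striatum, beside 54.8% and 62.8% of all genes. Mical2, an actin-oxidising enzyme of a family that works with plexins, had 184 against 48.1 CPM in cortex and D1 dorsal libraries.

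Among 28 other cues and co-receptors, 13 of 25 tested in dorsal striatum (5 higher in D1, 8 lower) and 13 of 24 in ventral striatum (4 and 9) were called between receptors, beside 25.9% and 47.7% of all genes. Flrt3, an adhesion protein that binds Unc5 receptors, was lower in D1 libraries as Unc5c and Unc5d were. Its means were 31.5 against 60.1 CPM in D1 and D2 dorsal and 24 against 57.3 CPM in D1 and D2 ventral libraries, with differences of -0.93 (SE 0.12, limma adjusted p = 2.10e-07) and -1.24 (SE 0.13, limma adjusted p = 4.24e-09). Lrrc4c, the partner of Ntng1, was lower in D1, with a log2 difference of -0.43 (SE 0.13, limma adjusted p = 0.0130) and -0.64 (SE 0.13, limma adjusted p = 2.64e-04). Lingo1 and Rtn4r, parts of the receptor for myelin inhibitors, were higher in D1 dorsal libraries by 0.91 (SE 0.17, limma adjusted p = 7.14e-05) and 1.58 (SE 0.23, limma adjusted p = 1.34e-06), and in cortex than D1 dorsal striatum by 1.49 (SE 0.10, limma adjusted p = 7.56e-16) and 2.85 (SE 0.17, limma adjusted p = 5.66e-18). The cortical markers that moved with the receptor comparison stand beside these too. Rtn4r was the 1 gene of 25 that the interaction called (1.19, SE 0.33, limma adjusted p = 0.0338), a count near the 2.64% of all genes. Between regions 9 of 25 (6 higher in dorsal striatum, 3 lower) were called in D1 and 7 of 24 (3 and 4) in D2, beside 34.6% and 28.5% of all genes. With median-ratio scaling the splits were 9 and 1 in D1 and 6 and 3 in D2. Against cortex, 16 of 25 (14 higher in cortex, 2 lower) and 18 of 25 (16 and 2) were called, beside 54.8% and 62.8% of all genes, of which 32.3% and 27.7% were higher in cortex and 22.5% and 35.1% lower. Apart from the dorsal receptor comparison, the shares called in either direction together lie within 10 percentage points of those of all genes. Dscam, a cell-surface receptor that can also bind netrin-1, was higher in cortex, with 23.4 against 6.02 CPM in cortex and D1 dorsal libraries and a difference of 1.97 (SE 0.15, limma adjusted p = 2.84e-15).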

How the data were processed

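Ribosome-bound mRNA of 79 libraries was analysed as CPM. The authors deposited a CPM value per gene and library for 25899 genes, and these sum to 30.96 to 40.15% of the scaling total. Per the submitters' processing notes, reads went through Trim Galore 0.4.2, cutadapt 1.9.1, FastQC and HISAT2 on build GRCm38. The counting program, annotation and filters are not given in the sources used here. Per the labels' protocols, cDNA was amplified with a kit that does not mark strand and read as pairs of 50 bases. All values above 0 (100%, tolerance 0.01) were whole multiples of 1 read, so depth is known, and it bounds counting error only.

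Groups came from the labelled region and receptor; replicate numbers follow accession order and are names only. Each comparison was fitted over the whole table with limma 3.58.1 in R 4.3.3 (lmFit, eBayes with trend, two-sided) on log2(CPM + 0.5), using the libraries of the groups compared. Genes entered with at least 1 CPM in as many libraries as the smallest group holds. Genes with a Benjamini-Hochberg adjusted p under 0.05 over all genes tested are called. The interaction used the 4 striatal groups. Intervals at 95% use limma's degrees of freedom. The fits were tested on simulated data. Full statistics are given for called members that differ at least 2-fold with at least 1 CPM in the higher group (all if 12 or fewer, otherwise the 6 largest in each direction), and for called interactions. Members, lists and tests were chosen with earlier results of these data known. A further cortical marker is not reported here. Coordinates, exon lengths and overlaps are from GENCODE vM21. Of the members, 62 of 72 had a RefSeq promoter window.

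Alternatives were pseudocounts of 1 and 0.1, no filter, scaling to reads in genes, median-ratio scaling, edgeR 4.0.16 on recovered reads, EM libraries alone, name code or share of reads in genes as covariate, libraries left out, and, between regions, sets of consecutive EM titles as a block.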

Additional observations from a re-analysis of the deposited data

Results flagged for a closer look

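For 2 guidance genes the D1 minus D2 difference differed between dorsal and ventral striatum by the interaction test. For Efnb3 the dorsal difference less the ventral one was -0.558, and for Plxnc1 it was -0.676, both on the log2(CPM + 0.5) scale. Beside 2.64% of all genes tested, 2 of 52 members is a share near the background.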

How the results depend on the processing

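The 54 differences with full statistics (called and at least 2-fold, or called interactions, by the rule for named genes) were recomputed under 632 combinations with an alternative: 627 kept direction and side of the threshold, 5 kept direction and no longer passed, and 0 reversed. The 5 were interactions. Most called members are not among the 54: of the 182 member calls in the 7 tests, 50 were not called under at least 1 alternative, 18 of them among the 24 of the ventral D1 minus D2 comparison and 7 among the 19 of the dorsal one. Efnb3 had adjusted p values of 0.0592 without the filter, 0.123 within EM libraries, 0.0589 when the share of reads in genes was a covariate and 0.0515 without D2 dorsal striatum replicate 1, and Plxnc1 had 0.289 within EM libraries. Of the counts, the ventral D1 minus D2 count fell from 24 to 10 when the share of reads in genes was a covariate. The interaction count of 2 became 4 with edgeR, 1 within EM libraries, 5 with the name code as covariate, 1 with the share as covariate and 1 without D2 dorsal striatum replicate 1. The cause was not tested. EM libraries alone, a smaller set, called 13, 19, 27, 20, 45 and 42 members in the 6 comparisons in place of 19, 24, 30, 23, 42 and 42. Leaving out D2 ventral striatum replicate 2 gave 24 (D1 minus D2, ventral), 22 (dorsal minus ventral, D2) and 2 (interaction). OdP libraries alone called 17 members between regions in D2; this setting, and those without D2 dorsal replicate 1 or the 4 prefrontal libraries, were chosen after seeing the data. The labels pair no libraries, but titles of EM libraries run in consecutive sets with 1 library per region, and the labels do not say that a set shares mice. With the set as replicate block, chosen after seeing the data, 28, 21, 40 and 38 members were called in the 4 comparisons between regions, against 27, 20, 39 and 36 in the same libraries without the block, and no named value changed its call. Deviations from the group means within a set correlated at medians of 0.192, 0.179, 0.131 and 0.111, with 9 of 11, 5 of 8, 6 of 11 and 7 of 11 sets over 0.1. Between different sets the medians were -0.0198, 0.0307, 0.0197 and -0.0143. Not every library correlated best with its own set. D1 and D2 libraries came from different lines, so that comparison has no block. Low members, 17 of 72, fell under the filter in all 6 comparisons of group pairs.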
